A study of Mus musculus with 6 samples.

Results

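The genes described here are 34 mouse genes that general knowledge lists as targets of the let-7 microRNAs and that lie outside the heterochronic core of that target set (Nr6a1, Trim71, the Igf2bp genes and their partners). They were chosen by name, and a gene was represented by the probe set annotated to it alone that had the highest mean over the arrays. Of the 34 genes, 31 had such a probe set, out of 18193 named genes on the array, and 3 (Fignl2, Gdf6 and Ddx19a) were not analysed here. The study measured messenger RNA in sarcoma cell lines of strain C57BL6/J on 3′ expression arrays, with 3 Dicer null arrays (no working copy of Dicer1) and 3 Dicer heterozygous arrays (1 copy lost). Both groups therefore carry at least 1 lost copy, no array has both copies intact, and the labels do not say how or in which part the gene was deleted. The cells were grown to confluence in DMEM with serum. The labels number the arrays of a group 1 to 3 without saying whether they are distinct lines or cultures of one, so p-values measure only the spread between these samples, which may be technical.

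MicroRNAs guide a silencing complex to messenger RNAs whose 3′ untranslated region pairs with their seed, and the paired messages are translated less and decay faster. Dicer cuts the precursors of let-7 and of most other microRNAs to their mature form, so that cells without it lack the mature strands. Let-7 is abundant in differentiated mesenchymal cells and low in early embryos, and its targets hold many genes of growth, cell division and development. The arrays did not measure mature microRNAs, so the level of let-7 in these cells was not analysed here.

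The family is shown to make plain what the listed genes are thought to share, pairing to 1 seed. Of 11 mature mouse strands in the RefSeq table (GRCm38.p6), 10 carry the same seed, GAGGUAG, and 1, let-7j, carries GAGGUAU. Capitals mark the seed, bases 2 to 8 from the 5′ end.
let-7a-5p: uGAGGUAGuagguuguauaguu
let-7d-5p: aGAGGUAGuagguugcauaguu
let-7e-5p: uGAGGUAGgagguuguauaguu
let-7g-5p: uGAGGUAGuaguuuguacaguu
let-7i-5p: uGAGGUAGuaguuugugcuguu
miR-98-5p: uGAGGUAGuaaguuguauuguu
let-7j: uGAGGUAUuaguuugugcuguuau
The strands let-7a-5p and let-7d-5p lie on the minus strand of chromosome 13, at chr13:48538239-48538260 and chr13:48536078-48536099. The strand let-7e-5p is at chr17:17830366-17830387 on the plus strand, let-7g-5p at chr9:106178846-106178867 on the plus strand and let-7i-5p at chr10:122985698-122985719 on the minus strand. The strand miR-98-5p is at chrX:151913229-151913250 and let-7j at chr3:140028281-140028304, both on the plus strand. A transcript that pairs with the common seed holds the letters CTACCTC. Whether the 34 genes hold them in their 3′ untranslated regions was not analysed here.

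The targeted gene, Dicer1, had 8.56, 8.4 and 8.42 in Dicer null arrays, against 8.6, 8.19 and 8.17 in Dicer heterozygous arrays (adjusted p = 0.693 in limma). A second probe set differed by 0.27 (adjusted p = 0.573 in limma). As the deleted part is not stated, these values check nothing. Of 8 mesenchymal markers 7 had a mean above 3, Thy1 being the exception, as a sarcoma line would. Of markers of other lineages, 2 of 6 epithelial, 1 of 5 endothelial (Cd34), 1 of 7 leukocyte (Cd68), 2 of 6 skeletal muscle and 1 of 5 neural genes (Tubb3) had a mean of at least 3, while Ptprc, Pecam1, Cdh1, Myod1 and Sox10 did not. Dicer heterozygous replicate 1 stood apart in several markers, with Krt18, an epithelial keratin, at 9.02 against 2.0 to 2.68 in the other arrays, and Thy1 at 4.29, Acta1 at 7.75 and Cd68 at 7.13. The summed epithelial list ran from 4.93 to 6.14 in Dicer null arrays and from 4.75 to 9.11 in Dicer heterozygous arrays on the log2 scale, and the muscle list from 5.74 to 5.94 in Dicer null and from 5.02 to 8.03 in Dicer heterozygous arrays. Dicer null replicate 2 stood apart in Nefl, a neurofilament gene, at 6.93 against 1.80 to 2.35 in the other arrays. It was also highest in the epithelial genes Epcam (5.21 against 2.53 to 3.55) and Krt8 (3.66 against 2.14 to 2.96). The part of these arrays' makeup in the results was not tested.

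Of the 34 genes, 26 had a mean log2 value of at least 3 over the arrays and were tested, while 5 lay below that level in both groups. The values are log2 GCRMA values of the authors, and a difference is the mean of the Dicer null arrays minus the mean of the Dicer heterozygous arrays. Of the 26 tested genes 2 rose in Dicer null cells, Dna2 and Map3k1, and 0 fell (limma, p-values adjusted by Benjamini-Hochberg over every tested probe set, adjusted p under 0.05), while 24 were not called. That is 7.69% of the 26, against 3.46% of all 11425 tested named genes called in either direction and 1.45% called higher. At an unadjusted p under 0.05, 9 of the 26 were higher in Dicer null arrays (34.6%) and 0 were lower. Among all 11425 tested genes 10.5% were higher at that level, and 1539 genes were lower. In bulk samples a smaller share of cells that express a gene and less of its RNA per cell cannot be told apart.

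The differences lay mostly above 0. They were positive for 22 of the 26 genes (84.6%), against 48.7% of all tested genes, with a median of 0.38 against -0.01 over all tested genes and a range of -0.34 (Nme6) to 2.84 (Dna2). In 10 of the 26 genes (38.5%) the Dicer null values all lay above the Dicer heterozygous values, against 14.9% of all tested genes. In 1 of the 26, Pgrmc1, they all lay below, against 1970 of all 11425 tested genes. A difference of at least 1.5-fold upward was measured for 10 genes (38.5%), against 13.7% of all tested genes, and one of that size downward for 0. How many of all tested genes had one of that size downward was not analysed here. The list was written with earlier results of these arrays known, so these shares describe the genes and were not tested as a set. Without 1 array at a time the number of positive differences was 20 to 23 and the median 0.31 to 0.48. The sign of 8 uncalled genes turned when some single array was left out: Cdc34, Gatm, Bzw1, Skil, Thbs1, Slc20a1, Cpeb2 and Xkr8.

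**Figure D1:**
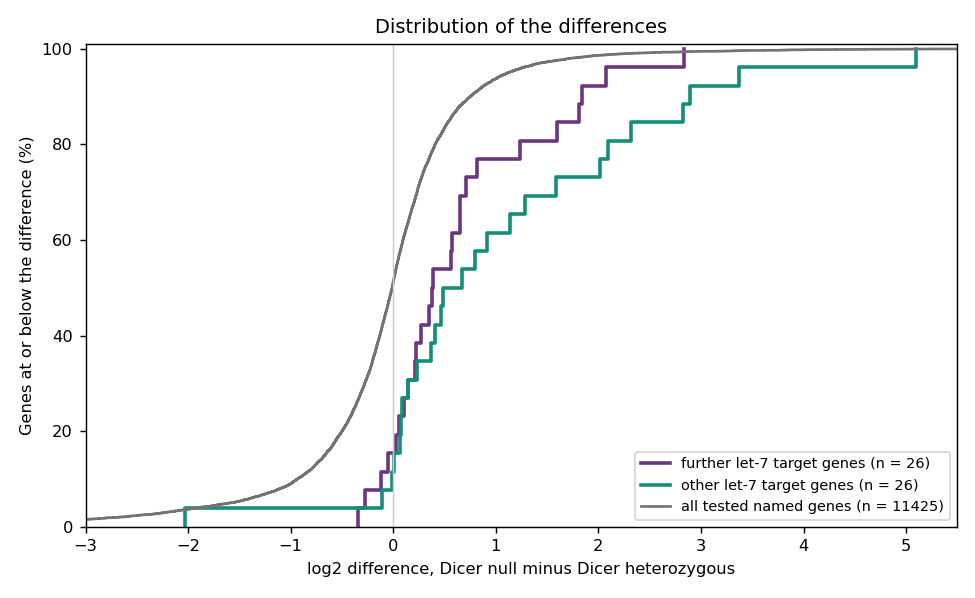
Share of genes (percent, vertical axis) whose log2 difference, Dicer null minus Dicer heterozygous, lies at or below the value on the horizontal axis, for 26 further let-7 target genes, 26 other let-7 target genes and 11425 tested named genes. A few of all the genes lie beyond the ends of the axis. Over most of its height the line of the further targets runs to the right of that of all genes, with a median of 0.38 against -0.01.

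Among the genes of cell division, replication and chromatin, 1 of 5 tested genes rose and 0 fell, against 1.45% of all tested genes called higher. Role groups of 2 to 7 tested genes are too small to be compared with such shares. Dna2, a nuclease and helicase that trims replication intermediates and broken DNA ends, stood at 7.36, 8.43 and 7.60 in the Dicer null arrays, against 5.10, 5.74 and 4.04 in the Dicer heterozygous arrays. All Dicer null arrays lay above all Dicer heterozygous arrays, of which replicate 3 was the lowest. The means were 7.80 ± 0.56 in Dicer null and 4.96 ± 0.86 in Dicer heterozygous arrays (SD, n = 3 each). The log2 difference was 2.84 (SE 0.49, 95% interval 1.64 to 4.03), a 7.14-fold rise, with an adjusted p of 0.0436 in limma and a positive difference in every alternative run. Its other tested probe sets gave smaller differences, 0.81 (SE 0.20, adjusted p = 0.0828) and 0.38 (SE 0.25, adjusted p = 0.414). Both are dim, with means of 3.02 and 3.23. The first of them passed the minimum of 3 only through the Dicer null arrays, so its difference is no support. The call of the main probe set held without Dicer heterozygous replicate 3 (difference 2.38, adjusted p = 0.0441) and was lost without any of the other arrays (adjusted p 0.0701 to 0.137).

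Cdc25a, the phosphatase that activates cyclin-dependent kinases at the entry to S phase, was not called by its brightest probe set. It stood at 9.39, 9.67 and 8.37 in the Dicer null arrays, against 7.71, 7.73 and 7.21 in the Dicer heterozygous arrays. The groups did not overlap, with Dicer null replicate 3 nearest to the Dicer heterozygous arrays. The means were 9.14 ± 0.68 in Dicer null and 7.55 ± 0.29 in Dicer heterozygous arrays (SD, n = 3 each), and the log2 difference was 1.59 (SE 0.37, 95% interval 0.69 to 2.49, adjusted p = 0.0748 in limma). A second, dimmer probe set with nearly the same difference, 1.51 (SE 0.27), did pass (adjusted p = 0.0447, but 0.0563 to 0.158 whichever array was left out), at 6.04, 6.66 and 6.59 in Dicer null arrays against 4.51, 5.15 and 5.09 in Dicer heterozygous arrays. The third, near background at a mean of 3.18, differed by -0.15.

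Smarcad1, a chromatin remodelling ATPase, had 9.68, 9.99 and 10.12 in Dicer null arrays, against 8.59, 9.27 and 9.48 in Dicer heterozygous arrays. The groups did not overlap, but the difference of 0.82 (SE 0.28, 95% interval 0.15 to 1.49) was not called (adjusted p = 0.154), nor was the 1.27 (SE 0.26) of its other probe set (adjusted p = 0.0565). Cdc34, the ubiquitin-conjugating enzyme that works with SCF ligases, overlapped between the groups and differed by 0.11 (95% interval -0.57 to 0.78), or by -0.07 without Dicer heterozygous replicate 3. Nme6, of the nucleoside diphosphate kinase family, overlapped too, with a difference of -0.34 (95% interval -0.92 to 0.23). Usp44, a deubiquitinase of the mitotic checkpoint, lay at background in all 6 arrays, between 1.63 and 2.81.

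Genes of proliferation had differences of the same sign as Dna2 and Cdc25a. A list of 15 markers of cycling cells (Mki67, Top2a and others) had 14 tested genes. Ccnb1, also listed, had no probe set annotated to it alone. All 14 had a positive difference, against 48.7% of all tested genes. Their median difference was 0.63, and 0 were called in limma. At an unadjusted p under 0.05, 4 of the 14 were higher (28.6%), against 10.5% of all tested genes. Relative to each gene's mean over the arrays, the median of these genes was 0.21, 0.54 and 0.26 in the Dicer null arrays, against -0.01, 0.02 and -0.85 in the Dicer heterozygous arrays. Dicer null replicate 2 was thus highest and Dicer heterozygous replicate 3 lowest, as they were for Dna2, Plagl2, Map3k1, Cdc25a and Dusp9. These 5 genes were chosen after their values were seen. Cdc34, Stard13 and Ttll4 had the same highest and lowest arrays, and the other tested genes of the list did not. Ddx19b was highest in Dicer null replicate 1. Of other genes with all Dicer null values above, Smarcad1, Pbx3 and Fndc3a were lowest in Dicer heterozygous replicate 1. Yod1 was lowest in Dicer heterozygous replicate 2. The share of all tested genes with this pair of highest and lowest arrays was not analysed here. Dicer heterozygous replicate 3 was barely below the next array for Map3k1 (5.91 against 5.99) and Plagl2 (7.09 against 7.15). The part of proliferation in these differences was not tested. Without Dicer heterozygous replicate 3 the log2 differences of Dna2, Plagl2, Map3k1, Cdc25a and Dusp9 were 2.38, 1.64, 1.92, 1.42 and 1.25, in that order. Those of the proliferation genes without that array were not analysed here.

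**Figure D2:**
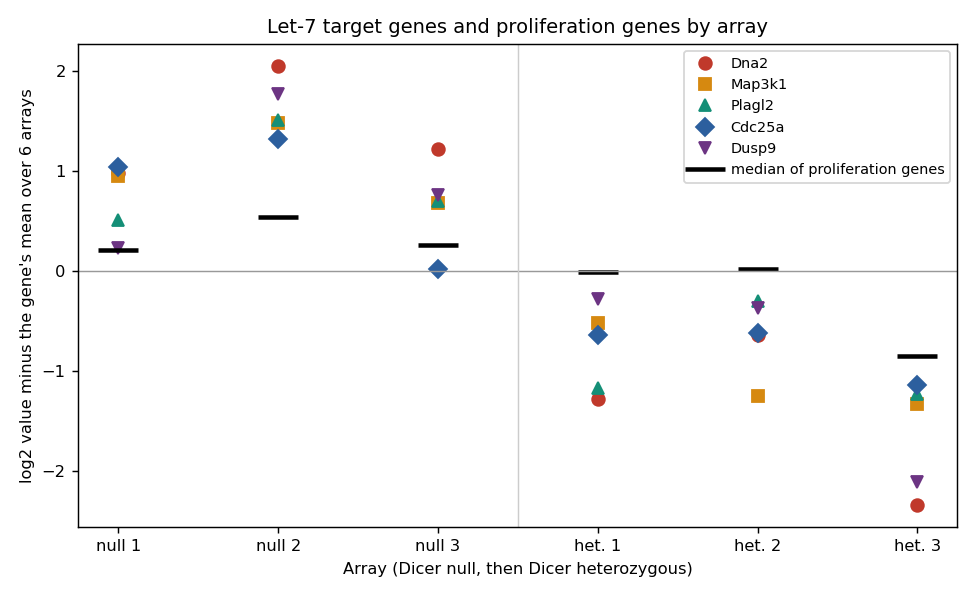
Log2 value minus the gene's mean over the 6 arrays (vertical axis) in each array (horizontal axis, Dicer null on the left), for 5 let-7 target genes (symbols) and for the median of 14 proliferation genes (bars). The 5 genes were chosen after their values were seen. All 5 genes lie above 0 in the Dicer null arrays and below 0 in the Dicer heterozygous arrays, and the bar is lowest in Dicer heterozygous replicate 3, at -0.85.

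Of the 4 transcription regulators 0 were called in limma (2 at an unadjusted p under 0.05), and 2 had groups that did not overlap. Among all tested genes 10.5% were higher at that unadjusted p, and 14.9% had all Dicer null values above. Plagl2, a zinc finger transcription factor, came nearest to a call of all 24 uncalled genes. It had 8.83, 9.83 and 9.02 in the Dicer null arrays, against 7.15, 8.02 and 7.09 in the Dicer heterozygous arrays. The groups did not overlap, with means of 9.23 ± 0.53 in Dicer null and 7.42 ± 0.52 in Dicer heterozygous arrays (SD, n = 3 each) and a log2 difference of 1.81 (SE 0.37, 95% interval 0.91 to 2.70, adjusted p = 0.0575). A second probe set gave 1.89 (SE 0.42, adjusted p = 0.0673), and another, dim one -0.40 with overlapping groups. Plagl2 passed with trend moderation (adjusted p = 0.0491) and with array weights (0.0228 and 0.0494), though the default weights lowered the difference to 1.13. It did not pass in the other alternatives, where the adjusted p was 0.0843 to 0.165 with an array left out and 0.0862 for the mean of its probe sets (difference 1.10).

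Pbx3, a homeodomain partner of Hox proteins, had 10.46, 9.75 and 10.40 in Dicer null arrays, against 9.26, 9.73 and 9.48 in Dicer heterozygous arrays. Dicer null replicate 2 barely exceeded Dicer heterozygous replicate 2, and neither the difference of 0.71 (SE 0.25, adjusted p = 0.168) nor the 1.14 (SE 0.36, adjusted p = 0.135) of its other probe set was called. Bach1, a haem-sensing repressor of antioxidant genes, overlapped between the groups (difference 0.39, 95% interval -0.09 to 0.86). Skil (SnoN), a corepressor of Smad proteins, was nearly level, with 12.08, 11.88 and 12.08 in Dicer null arrays against 12.08, 12.04 and 11.83 in Dicer heterozygous arrays and a difference of 0.03 (95% interval -0.36 to 0.42).

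Of the 3 tested genes of RNA handling and translation 0 were called in limma (1 at an unadjusted p under 0.05), and 1 had groups that did not overlap. The shares over all tested genes were 10.5% higher at that unadjusted p and 14.9% with all Dicer null values above. Ddx19b, a DEAD-box helicase that releases messenger RNA at the nuclear pore, stood at 6.93, 6.56 and 6.64 in Dicer null arrays, against 5.91, 5.48 and 5.03 in Dicer heterozygous arrays. The groups did not overlap, with means of 6.71 ± 0.19 in Dicer null and 5.47 ± 0.44 in Dicer heterozygous arrays (SD, n = 3 each). The difference was 1.24 (SE 0.26, 95% interval 0.60 to 1.87, adjusted p = 0.0611), and it was 0.42 (SE 0.41, adjusted p = 0.582) in the other tested probe set, whose groups overlapped. Ddx19a is a close relative and lies next to Ddx19b on chromosome 8, and how far the probe sets tell their messages apart was not analysed here. Bzw1, which regulates the start of translation, and Cpeb2, which binds polyadenylation elements in the cytoplasm, overlapped between the groups, with differences of 0.22 (95% interval -0.52 to 0.96) and -0.12 (95% interval -0.68 to 0.45). The 5 probe sets of Bzw1 all had positive differences, between 0.22 and 0.71, but without Dicer heterozygous replicate 1 that of the brightest was -0.08.

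Of the signalling genes, receptors and ligands could not be judged: Gdf6, a ligand of the BMP family, was not analysed here, and Acvr1c (ALK7), a type I receptor for activin-like ligands, lay between 1.74 and 2.09 in all arrays. Among the 5 tested genes, which act at or below the membrane, 1 rose and 0 fell, against 1.45% of all tested genes called higher. Map3k1 (MEKK1), a kinase at the head of the JNK and ERK cascades, had 8.19, 8.72 and 7.92 in Dicer null arrays, against 6.72, 5.99 and 5.91 in Dicer heterozygous arrays. Every Dicer null array lay above every Dicer heterozygous one. The means were 8.28 ± 0.41 in Dicer null and 6.21 ± 0.45 in Dicer heterozygous arrays (SD, n = 3 each). The log2 difference was 2.07 (SE 0.31, 95% interval 1.31 to 2.83), a 4.20-fold rise (adjusted p = 0.0320 in limma). Without Dicer heterozygous replicate 1 the call held (difference 2.33, adjusted p = 0.0317), and without any of the other arrays it was lost, with differences of 1.85 to 2.25 and adjusted p of 0.0503 to 0.102. Its second probe set lay at background, with a mean of 2.16, and was not tested.

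Dusp9 (MKP-4), a phosphatase that inactivates ERK, had a difference nearly as large, but its arrays spread more. It stood at 9.42, 10.96 and 9.95 in Dicer null arrays, against 8.91, 8.82 and 7.08 in Dicer heterozygous arrays. There was no overlap, with means of 10.1 ± 0.78 in Dicer null and 8.27 ± 1.03 in Dicer heterozygous arrays (SD, n = 3 each), and the difference of 1.84 (SE 0.61, 95% interval 0.35 to 3.33) was not called (adjusted p = 0.148 in limma). Its other probe sets gave 2.04 and 2.12 (SE 0.61 and 0.68, adjusted p = 0.120 and 0.137). Stard13 had 10.78, 10.87 and 10.40 in Dicer null arrays, against 10.50, 10.09 and 9.50 in Dicer heterozygous arrays, with Dicer null replicate 3 below Dicer heterozygous replicate 1 and a difference of 0.65 (95% interval -0.06 to 1.37), which was 0.39 without Dicer heterozygous replicate 3. Lrig3, a membrane protein with leucine-rich repeats, differed by 0.22 (95% interval -0.26 to 0.69).

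The probe sets of Mapk6 (ERK3), an atypical MAP kinase, gave opposite directions. The brightest had 11.56, 11.68 and 11.77 in Dicer null arrays, against 11.45, 11.45 and 11.69 in Dicer heterozygous arrays, a difference of 0.14 (95% interval -0.25 to 0.53) with overlap. Another had 7.05, 7.23 and 7.29 in Dicer null arrays, against 7.45, 8.0 and 9.41 in Dicer heterozygous arrays, and all the Dicer null arrays lay below (difference -1.10, adjusted p = 0.245). In yet another they all lay above, at 7.27, 8.14 and 7.74 in Dicer null arrays against 7.06, 7.21 and 6.99 in Dicer heterozygous arrays (difference 0.63, adjusted p = 0.202). None of the 3 was called in limma.

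**Figure D3:**
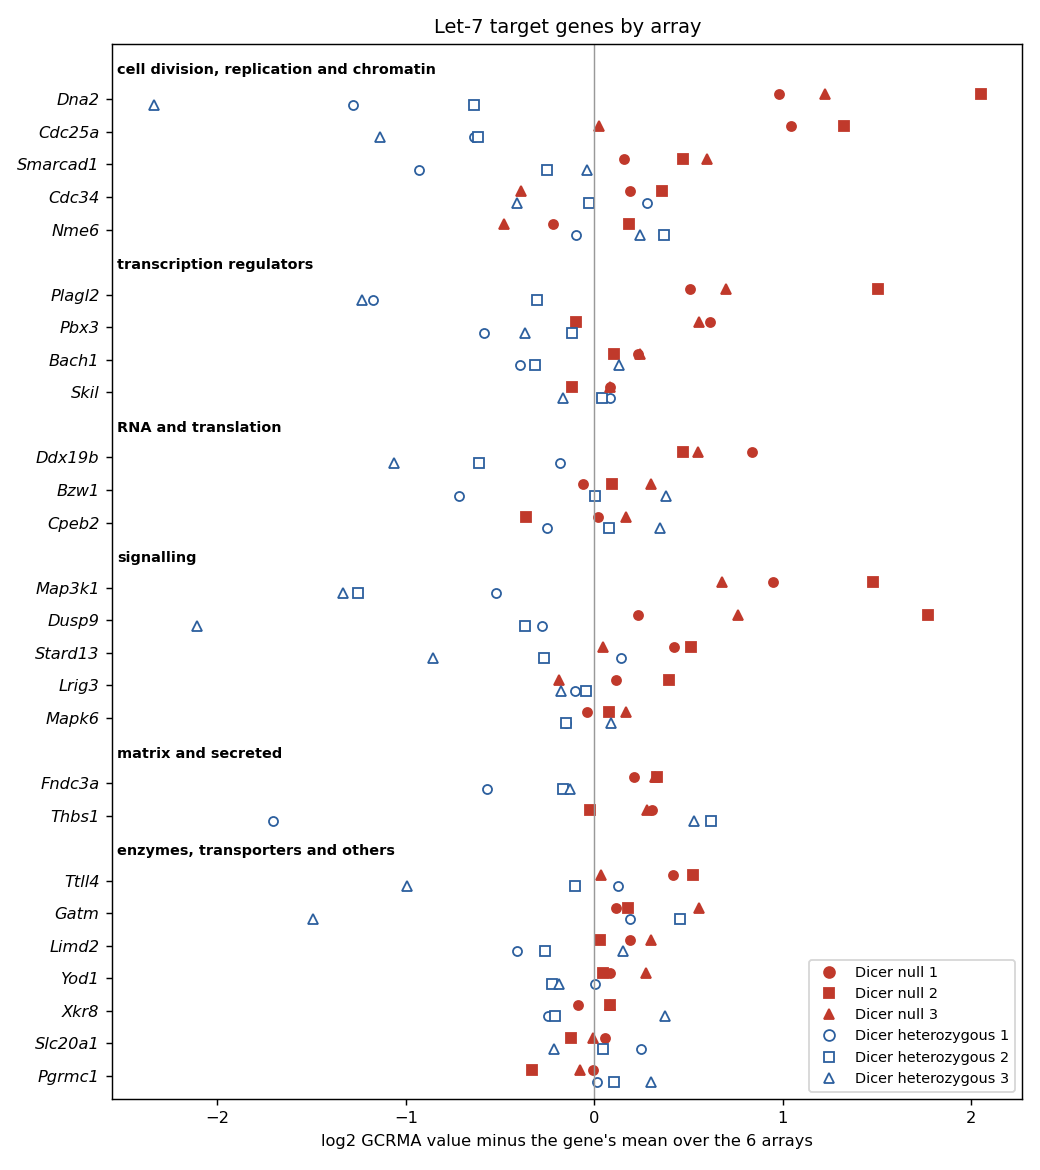
Log2 value minus the gene's mean over the 6 arrays (horizontal axis) for the 26 tested let-7 target genes, grouped by role, with Dicer null arrays as filled red symbols and Dicer heterozygous arrays as open blue symbols in a row below. The symbols separate for 11 genes, among them Dna2, Map3k1 and Plagl2 (Dicer null higher) and Pgrmc1 (Dicer null lower).

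Of the 5 genes grouped here under matrix, secreted or adhesive proteins, 3 lay at background, and 0 of the 2 tested were called in limma. At an unadjusted p under 0.05, 1 of the 2, Fndc3a, was higher, against 10.5% of all tested genes. Whether Fndc3a is a matrix or secreted protein was not analysed here. The background genes were the basement membrane protein Fras1 (2.37 to 2.52), the secreted collagen regulator Cthrc1 (1.12 to 1.92) and the metalloprotease Adamts8 (1.52 to 1.90). Fndc3a, a protein with fibronectin type III domains, had 11.35, 11.47 and 11.46 in Dicer null arrays, against 10.57, 10.97 and 11.01 in Dicer heterozygous arrays. The groups did not overlap, and the difference of 0.58 (SE 0.18, 95% interval 0.13 to 1.02) was not called (adjusted p = 0.135). Its dimmer probe sets had overlapping groups, with differences of 1.35 and -0.35. Thbs1, thrombospondin 1, an inhibitor of vessel growth that also activates TGF-beta, had 11.22, 10.89 and 11.19 in Dicer null arrays, against 9.21, 11.53 and 11.44 in Dicer heterozygous arrays. Its positive difference, 0.37 (adjusted p = 0.764), rested on Dicer heterozygous replicate 1, the array with Krt18 at 9.02, and without that array it was -0.39 (adjusted p = 0.312).

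Of the 7 enzymes, transporters and other genes 0 were called by their brightest probe set in limma. At an unadjusted p under 0.05 there were 0 as well, against 10.5% of all tested genes higher at that level. Ttll4, which adds glutamate chains to tubulin and other proteins, had a dimmer probe set that was called. Its brightest had 9.95, 10.06 and 9.57 in Dicer null arrays, against 9.66, 9.43 and 8.54 in Dicer heterozygous arrays, with overlap and a difference of 0.65 (SE 0.33, adjusted p = 0.294), or 0.315 without Dicer heterozygous replicate 3. A second stood at 7.76, 8.17 and 7.87 in Dicer null arrays, against 6.36, 6.09 and 5.27 in Dicer heterozygous arrays, and rose by 2.03 (SE 0.31, adjusted p = 0.0339). That call held without Dicer heterozygous replicate 1 (adjusted p = 0.0368) or 3 (0.0261) and was lost without any of the other arrays (0.0862 to 0.124). Which transcripts the probe sets read was not analysed here.

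Gatm, the first enzyme of creatine synthesis, had 7.11, 7.17 and 7.55 in Dicer null arrays, against 7.18, 7.45 and 5.5 in Dicer heterozygous arrays. Its difference of 0.57 (95% interval -0.69 to 1.82) came from Dicer heterozygous replicate 3, and without that array it was -0.04. Pgrmc1, a haem-binding membrane protein, was lower in every Dicer null array, with 11.79, 11.47 and 11.72 in Dicer null arrays against 11.81, 11.90 and 12.10 in Dicer heterozygous arrays, but by only -0.28 (95% interval -0.70 to 0.15, adjusted p = 0.392). Yod1, a deubiquitinase of the endoplasmic reticulum pathway for misfolded proteins, was higher in every Dicer null array, with 9.12, 9.08 and 9.31 in Dicer null arrays against 9.04, 8.81 and 8.85 in Dicer heterozygous arrays (difference 0.27, adjusted p = 0.368). Limd2, a LIM domain protein, overlapped between the groups in its brightest probe set (difference 0.35) and in another (0.64). In a dimmer one it had 5.22, 4.96 and 5.19 in Dicer null arrays against 4.53, 4.27 and 4.54 in Dicer heterozygous arrays, without overlap (difference 0.68, 95% interval 0.26 to 1.09, adjusted p = 0.0881). Slc20a1, a sodium-phosphate cotransporter, and Xkr8, which exposes phosphatidylserine on dying cells, overlapped in all their tested probe sets, with differences of -0.05 and 0.05 in the brightest.

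**Figure D4:**
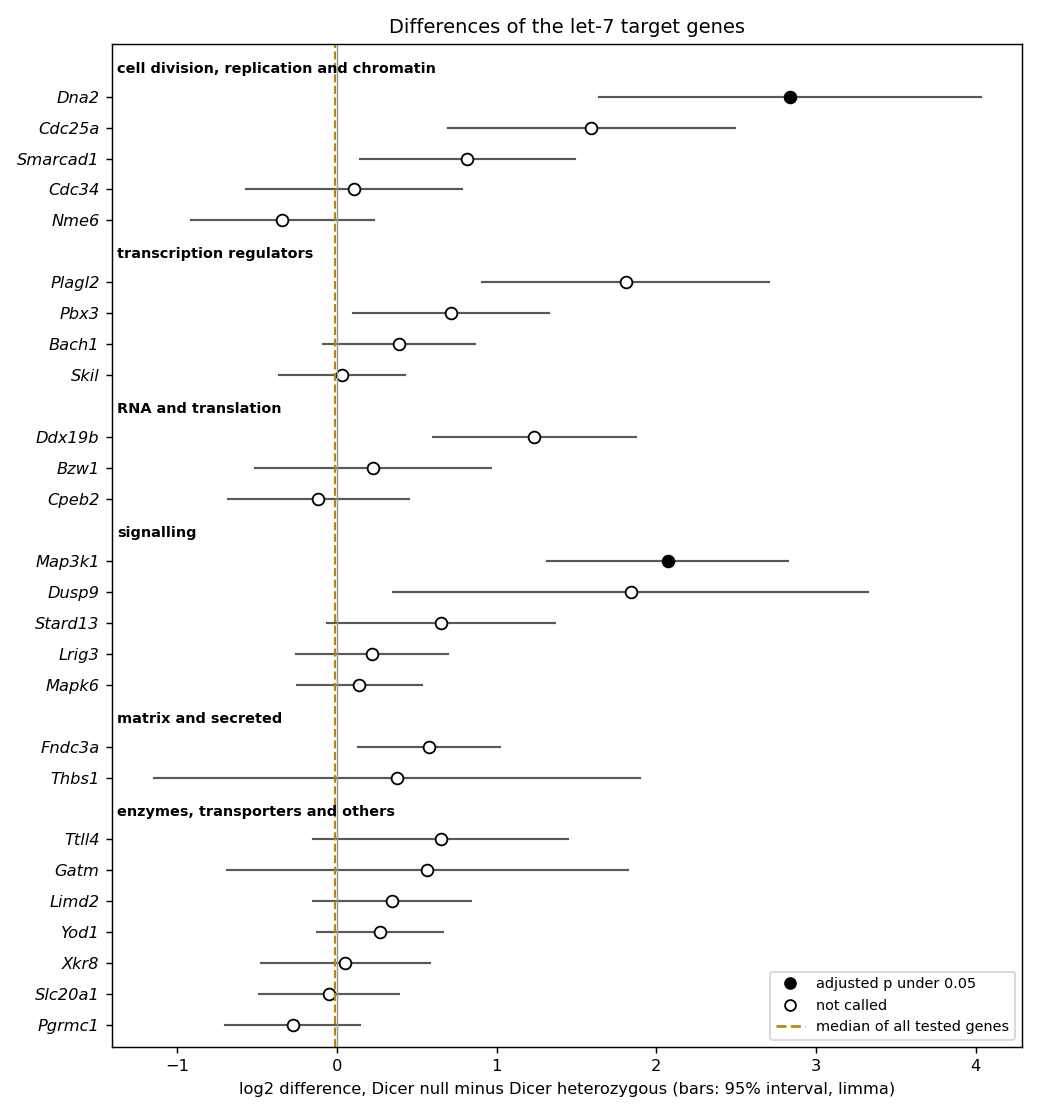
Log2 difference, Dicer null minus Dicer heterozygous (horizontal axis), of the 26 tested let-7 target genes by role, with the 95% interval of limma's fit as bars and the median of all tested genes as a dashed line. Filled points are the 2 called genes, Dna2 (2.84) and Map3k1 (2.07), and 9 intervals lie wholly above 0.

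How firmly the uncalled genes can be described differs. For 13 of the 26 genes the upper end of the 95% interval of the brightest probe set lay below a 2-fold rise: Bach1, Bzw1, Cdc34, Cpeb2, Limd2, Lrig3, Mapk6, Nme6, Pgrmc1, Skil, Slc20a1, Xkr8 and Yod1. In 6 of them (Bach1, Bzw1, Cpeb2, Limd2, Mapk6 and Yod1) the interval of another tested probe set reached past 2-fold. For the other 11 uncalled genes a 2-fold rise lay within the interval. The median half-width of the interval was 0.63 on the log2 scale, or 1.54-fold, and it ran from 0.39 to 1.52 (Thbs1). Of the tested genes nearest to the minimum of 3, Ddx19b and Dna2 had means of 6.09 and 6.38 in their brightest probe sets. Of those below it, Fras1 and Usp44 had 2.47 and 2.10. No brightest probe set of the list thus lay between 2.47 and 6.09. Some dimmer tested probe sets lay just above the minimum, such as those of Dna2 (3.02) and Cdc25a (3.18).

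Beside the 26 brightest probe sets another 31 were tested, on 20 of the genes, and 26 of the 31 had a positive difference. Of these, 1 probe set each of Dna2 and Ttll4 passed the minimum of 3 only through the Dicer null arrays, and of the other 29 the difference was positive in 24. These counts are a description and support no direction. Of all 57 tested probe sets 4 were called in limma, all higher in Dicer null arrays: those of Dna2 and Map3k1, and the dimmer ones of Cdc25a and Ttll4. That is 7.02%, against 1.62% of all 24385 tested probe sets called higher. In 13 of the 20 genes a dimmer probe set had a larger difference in size than the brightest one. The tested probe sets of 15 genes agreed in sign, and those of Plagl2, Cdc25a, Cpeb2, Mapk6 and Fndc3a did not. Probe sets of 1 gene share its RNA and are not replicates.

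**Figure D5:**
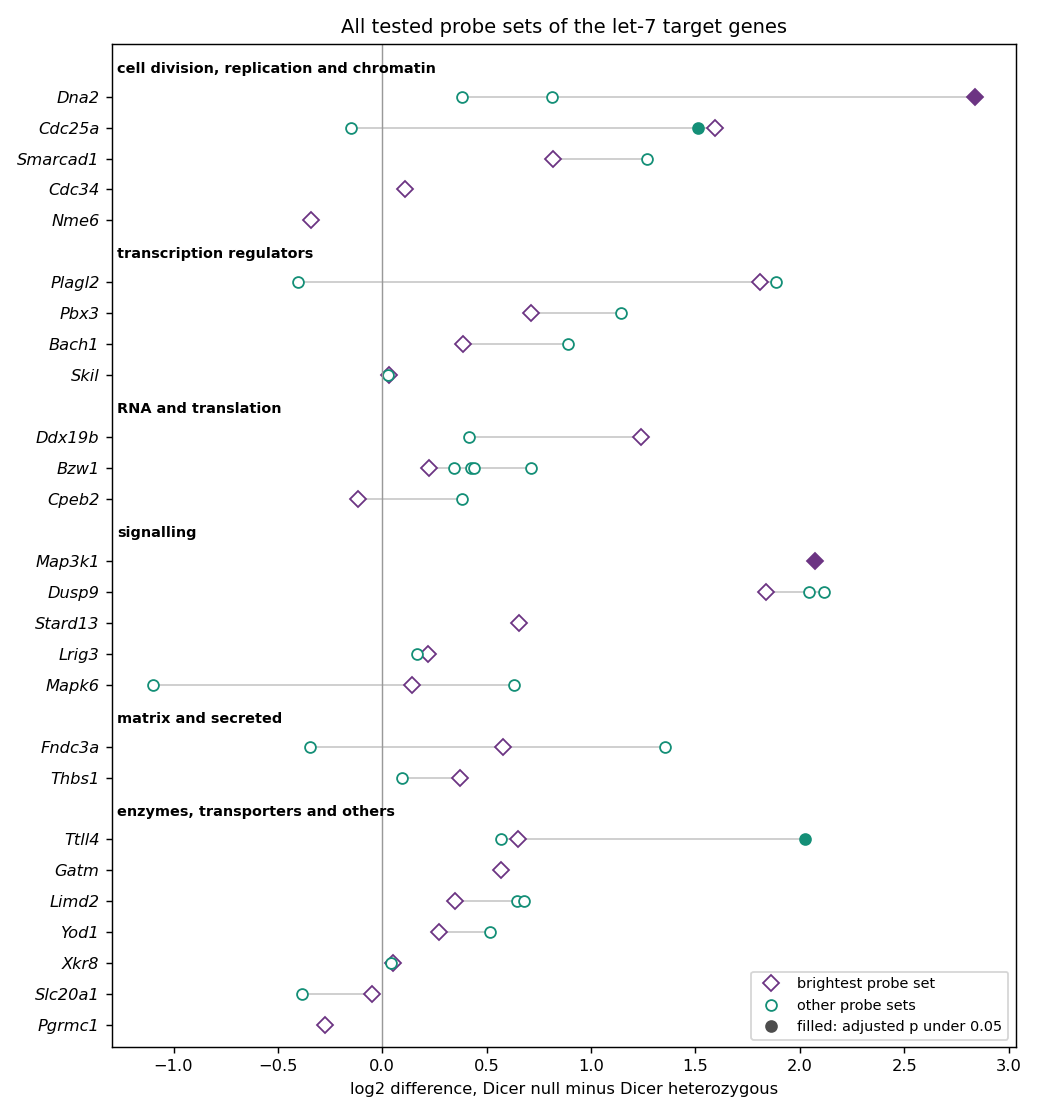
Log2 difference, Dicer null minus Dicer heterozygous (horizontal axis), of all 57 tested probe sets of the 26 let-7 target genes, with the brightest probe set of a gene as a diamond, the others as circles and those with an adjusted p under 0.05 filled. The 4 filled symbols lie between 1.51 (Cdc25a) and 2.84 (Dna2), and the probe sets of Mapk6 spread from -1.10 to 0.63.

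A second list, of 34 other let-7 targets from general knowledge, had 26 tested genes. Of these, 8 (30.8%) rose and 0 fell in limma, against 1.45% of all tested genes called higher. The 8 were Nr6a1, Trim71, Igf2bp1, Igf2bp3, Arid3a, Arid3b, Hic2 and Prtg, with log2 differences between 1.59 (Arid3b) and 5.10 (Igf2bp1). The median difference there was 0.58, and 23 of the 26 (88.5%) were positive, against 48.7% of all tested genes. Dicer1, the targeted gene, is on this list and counts among the 23. The difference from the 2 of 26 calls above was not tested, and that list was also written with earlier results known. Arid3a passed the minimum only through the Dicer null arrays, with means of 4.92 in Dicer null and 2.90 in Dicer heterozygous arrays. Of the 26, 16 (61.5%) lay above in every Dicer null array, against 14.9% of all tested genes. Among the 16 were the uncalled cell cycle and growth genes E2f5 (difference 0.92), Ccnd1 (0.67), Cdk6 (0.79), Irs2 (1.29) and Hmga2 (0.48). Another 8 overlapped, among them Nras (0.08), Myc (0.09), Mycn (0.01) and Igf1r (0.06). The uncalled genes named here were chosen after their values were seen. The remaining 2 were lower in every Dicer null array, against 1970 of all 11425 tested genes. They were Ago4, an Argonaute protein (-2.03, adjusted p = 0.0949 in limma), and E2f6 (-0.11, adjusted p = 0.704 in limma).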

How the data were processed

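RNA of 3 Dicer null and 3 Dicer heterozygous samples was hybridised as biotin-labelled cRNA. The authors' deposited table holds 45037 probe sets as log2 values (0.40 to 14.18). The tools named are GCRMA 2.20.0 under R 2.11.1, per the submitters' processing notes; GCRMA corrects background by probe sequence and normalizes quantiles. Its settings are not given in the sources used. Quantile normalization removes an overall shift in RNA, and values under about 3 depend on the background model, so 24385 probe sets with a mean of at least 3 over the 6 arrays were tested.

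Samples were grouped by title. Names came from the platform annotation given for this work, which ties 34945 probe sets to 1 symbol, 932 to several and 9160 to none. Only the first kind was used. All 34 genes matched the GRCm38.p6 gene table. MicroRNA sequences came from RefSeq.

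One model was fitted in limma 3.58.1 (R 4.3.3; lmFit and eBayes, two-sided) without a block, with p-values adjusted by Benjamini-Hochberg over the 24385 probe sets, called below 0.05. It was tested on simulated data, in which 200 of 24385 probe sets differed between the groups. Of those that differed, it called 15.4% at 2-fold, 64.7% at 4-fold and 94.0% at 16-fold. Of its 127 calls there, 10 were false. Differences of 2-fold were thus mostly missed in those data. Every listed gene is named, with statistics for called genes and for the uncalled ones nearest to a call. The genes and lists were chosen with earlier results of these data known. Alternatives were other minimums, moderation, normalization, array weights, a replicate block, other probe sets per gene and each array left out. Figures used matplotlib 3.10.9. The number of arrays limits the precision.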

Additional observations from a re-analysis of the deposited data

How the results depend on the processing

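The 2 calls among the let-7 target genes are near the threshold. In limma 2 of the listed genes, 8 of the other let-7 targets and 756 probe sets were called. Without 1 array these counts were 0 to 1, 2 to 7 and 44 to 857, with 6 to 9 listed genes at an unadjusted p under 0.05 where 0 were called. The listed genes still called were Map3k1 without Dicer heterozygous replicate 1 and Dna2 without Dicer heterozygous replicate 3. No minimum gave 1 listed gene. Ordinary t statistics gave 0 listed genes, 0 other targets and 0 probe sets (6, 14 and 4873 at an unadjusted p under 0.05). Array weights gave 12, 14 and 6875 by the default method, and 5, 12 and 2949 gene by gene. Nme6 was lower in Dicer null arrays and the other 11 of the 12 higher. The labels' replicate numbers are not shown to pair the samples (correlations of deviations -0.06, 0.11 and 0.24, and 3 of 6 arrays closest to their own number). With the number as a replicate block 0 listed genes (10 at an unadjusted p under 0.05), 2 other targets and 116 probe sets were called. The remaining settings gave 2 or 3 listed genes. The differences of Dna2, Map3k1, Plagl2, Cdc25a and Ddx19b were positive in all 18 alternatives run. Leaving out single arrays for the called dimmer probe sets of Cdc25a and Ttll4 was chosen after seeing the data. The causes were not tested.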

Other observations

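Across the 26 tested let-7 target genes, Dicer heterozygous replicate 3 was the lowest array for 12 (46.2%), against 30.3% of all tested genes. Dicer heterozygous replicate 1 was lowest for 9 (34.6%), against 16.6%. Dicer null replicate 2 was the highest array for 10 (38.5%), against 20.2% of all tested genes. These counts partly restate the upward differences. The SD of the Dicer heterozygous arrays exceeded that of the Dicer null arrays in 18 of the 26 genes (69.2%), near the 64.6% of all tested genes.

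Cdc25a and Nme6 lie on chromosome 9 with 1 protein-coding gene between them, and their differences were 1.59 and -0.34.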
